A study of Sus scrofa with 6 samples.

Results

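Neural adhesion genes of the cadherin, protocadherin, contactin, NCAM, CADM, neurexin, neuroligin and LRRTM families were described in the brains of Rongchang pigs, a domesticated Chinese breed, and wild boars. Members were chosen by symbol: CDH followed by a digit without the endothelial gene CDH5, and every symbol starting with PCDH, CNTN, NCAM, NRXN, NLGN, LRRTM or CADM. Of 18225 Ensembl gene identifiers in the deposited table, 10937 matched a symbol, and 47 of these were members, each on 1 identifier. Known family members such as CNTN2, CNTNAP2, NRXN2, NLGN2 and CADM1 were not among the 47. Counts and ranks within a family therefore cover its matched members only. Poly(A) RNA of whole-tissue samples labelled brain, with no region given, was sequenced from 3 Rongchang pigs and 3 wild boars, all 210 days old, with 1 library per animal. The labels name no treatment, sex, herd or sampling site for either group. Values are FPKM, a fragment count divided by transcript length and by the fragments mapped in the library, so levels of different genes can be set side by side. The spread is given as SD with n = 3 per breed. No member passed the test between the breeds, and the clearest pattern lay between libraries of the same breed.

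Cells of the brain recognise each other through these proteins. Classical cadherins bind the same or a similar cadherin on the neighbouring cell and connect through catenins to actin, while protocadherins give neurites a surface identity that guides self-avoidance and wiring. Contactins, NCAM and CADM proteins are immunoglobulin-type adhesion molecules of axons, glia and synapses. Neurexins sit mainly on the presynaptic membrane and bind neuroligins and LRRTM proteins across the synaptic cleft, a contact that organises transmitter release sites and receptors.

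The 7 neuron markers matched, of 8 listed, summed to 1693 to 2360 FPKM in Rongchang and 1616 to 2225 FPKM in wild boar, the lowest of them being SLC17A6 at 2.45 to 5.29 FPKM over all libraries. The presynaptic gene SNAP25 stood at 786, 1022 and 1156 FPKM in Rongchang and 786, 1052 and 1102 FPKM in wild boar. The forebrain gene TBR1, a transcription factor of cortical projection neurons, stood at 22.1, 36.6 and 26.0 FPKM in Rongchang and 19.8, 41.7 and 28.1 FPKM in wild boar. The cerebellar markers (4 of 6 matched) summed to 5.66 to 6.89 FPKM in Rongchang and 5.49 to 7.52 FPKM in wild boar, mostly ZIC1 and CALB1, while the granule cell gene GABRA6 did not exceed 0.19 FPKM in any library. The summed endothelial and pericyte markers (4 of 6 matched) did not overlap, at 17.9 to 24.3 FPKM in Rongchang and 26.4 to 30.3 FPKM in wild boar. Of those 4 genes PDGFRB alone separated the breeds. Among all 41 markers tested, the others without overlap were CNP of oligodendrocytes and ALDH1L1 of astrocytes, both higher in Rongchang. That makes 2 of 41 markers higher and 1 lower, against 11.4% and 1.12% of all genes tested. Choroid plexus markers (3 of 5 matched) summed to at most 3.60 FPKM in 5 libraries and to 34.8 FPKM in wild boar 3, of which TTR was 34.2. The part of these cell types in the values below was not tested. In whole tissue, fewer cells of a type and less RNA per cell cannot be told apart.

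**Figure D1:**
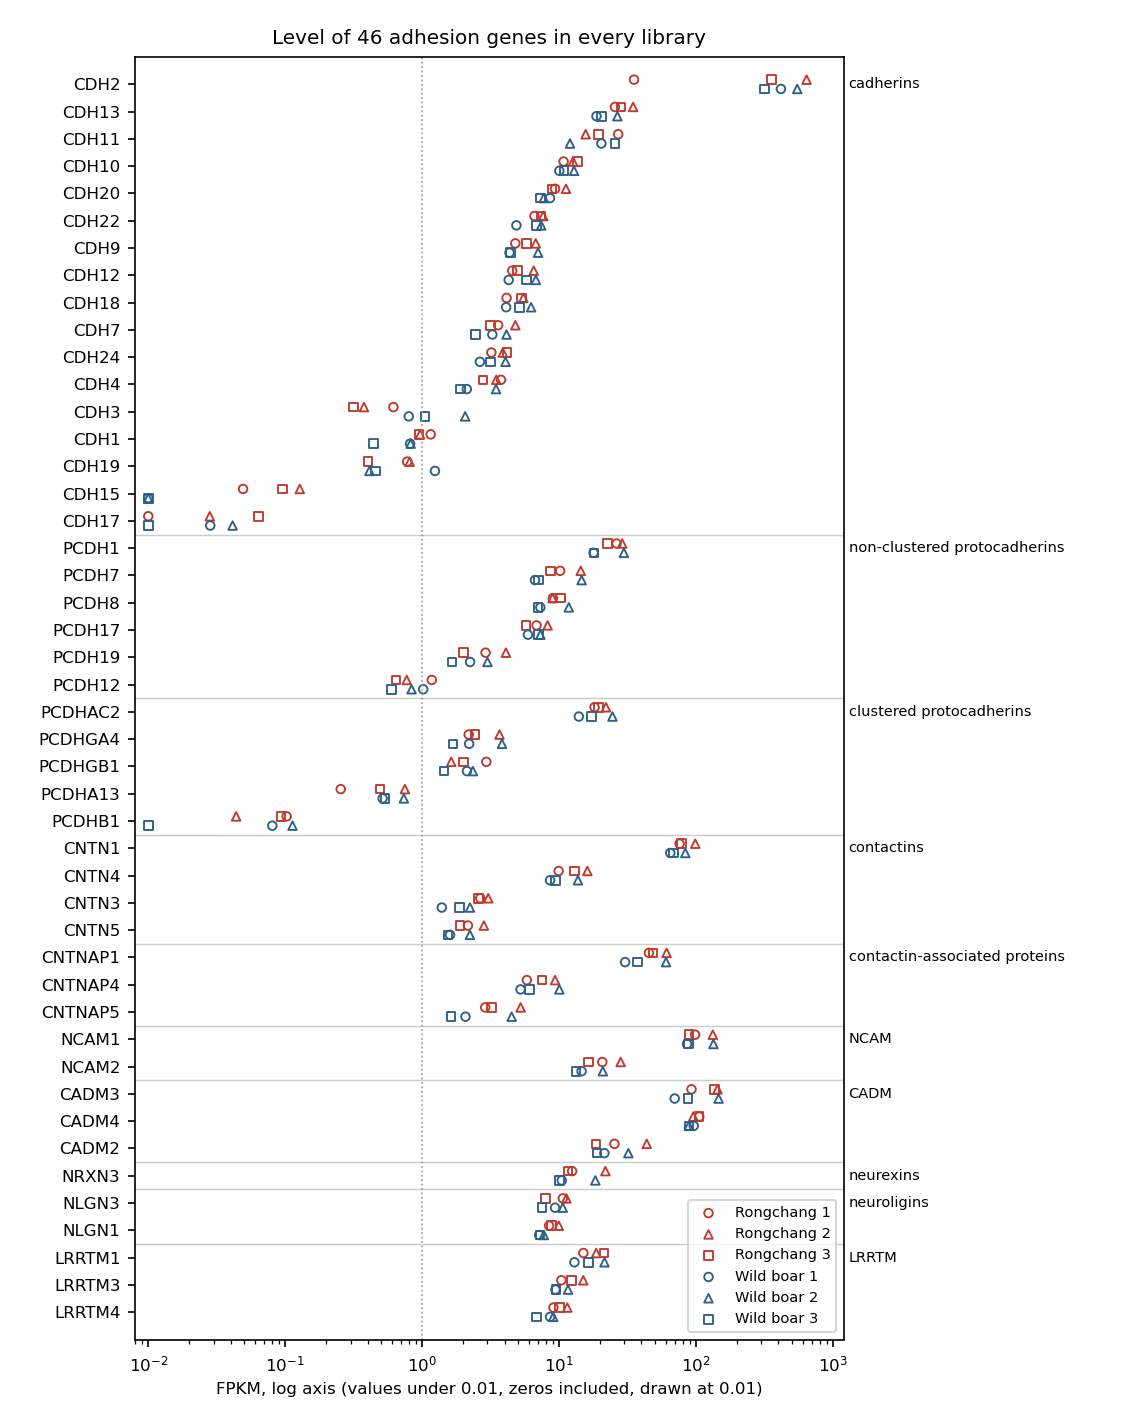
FPKM of 46 members (rows, by family) in each library on a log axis, with Rongchang in red above wild boar in blue and the library number as the marker shape. The dotted line marks 1 FPKM. CDH2 in Rongchang 1, at 35.3 FPKM, lies away from its 5 other values of 316 to 643 FPKM.

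The members spanned a wide range of levels. Of the 47, 39 reached 1 FPKM in at least 3 of the 6 libraries and were tested. By mean FPKM, 4 of these 39 lay among the top 5% of all 13152 genes tested: CDH2, CADM3, NCAM1 and CADM4. The top 10% held 7 members, CNTN1 and CNTNAP1 among them, and 14 members lay below the median gene. The 8 members under the limit were CDH1, CDH3, CDH15, CDH17, CDH19, PCDH12, PCDHA13 and PCDHB1, the highest single value among them being 2.06 FPKM for CDH3 in wild boar 2.

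Between the breeds, 0 of the 39 passed an adjusted p of 0.05 in limma, where 1 of all genes did (0.00760% higher in Rongchang and 0.00% lower). At an unadjusted p under 0.05 there was 1 member higher in Rongchang, CNTN3, against 5.42% of all genes, and none lower, against 0.578%. Median scaling left no member at that level, against 3.76% of all genes in either direction. The log2 fold change, Rongchang minus wild boar in log2(FPKM + 1), lay above 0 for 35 of 39 members, but it did so for 77.9% of all genes. The median over the members was 0.18 and over all genes 0.13, and 23 of the 39 lay above the median gene, where 50.0% of all genes do. After each library was scaled to the same median, 22 of 39 members and 46.4% of all genes lay above 0, and the directions of 13 members flipped. For members that flipped, the value under median scaling stands beside the first. A positive sign of about the size of the median gene therefore describes the libraries as a whole as much as these members. The 95% interval included 0 for 38 of 39 members. It lay within 1 log2 unit of 0 for 36, the exceptions being CDH2, CNTNAP5 and CADM3.

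Libraries of both breeds are numbered 1 to 3, and same-numbered libraries deviated together. With the number as a block, 9 members had an unadjusted p under 0.05, all higher in Rongchang, where 16.0% of all genes did so in that direction and 1.41% in the other. They were CDH13, CNTN1, CNTN3, CNTN4, CNTNAP1, CNTNAP5, NCAM2, NLGN1 and LRRTM3. None passed adjustment over all genes with the block either, where 0.00760% of all genes did, and the lowest adjusted p of a member was 0.228 in limma. With the block and median scaling together, 2 members had an unadjusted p under 0.05 in limma, 1 higher and 1 lower in Rongchang, where 10.5% of all genes did. The higher one was CDH13, with an unadjusted p of 0.0236 in limma.

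**Figure D2:**
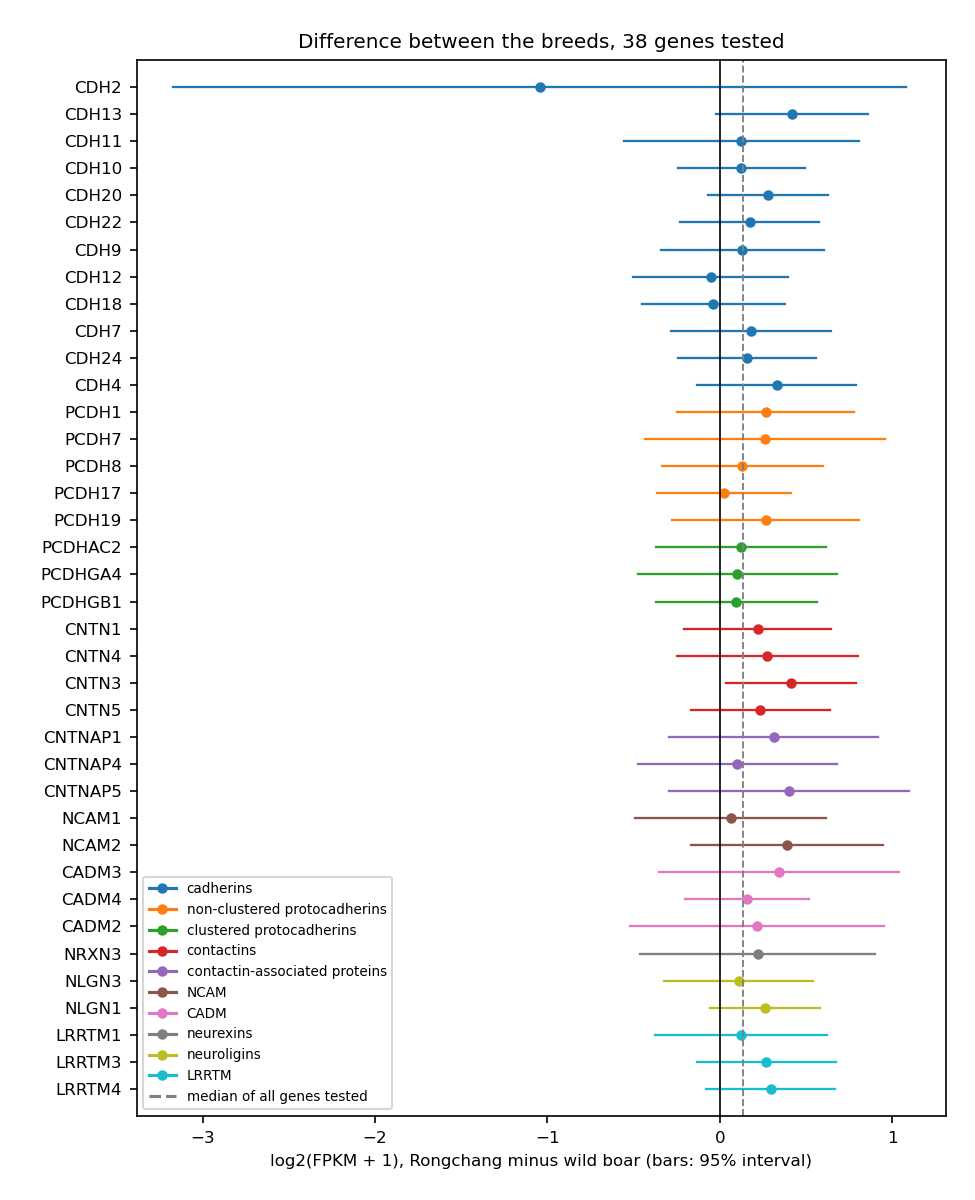
Difference between the breeds in log2(FPKM + 1), Rongchang minus wild boar, for 38 of the 39 members tested, with 95% intervals and colours by family. The dashed line is the median of all genes tested, at 0.13. Most points lie near that line, the interval of CNTN3 is the one that leaves out 0, and CDH2 has the widest.

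Among the cadherins, 12 of 17 members were tested, with a median log2 fold change of 0.14, which is 0.01 relative to the median gene, and 6 of the 12 lay above that gene. CDH2, the N-cadherin of neural junctions and synapses, was the most abundant member of all. It stood at 35.3, 643 and 355 FPKM in Rongchang against 417, 549 and 316 FPKM in wild boar. Rongchang 1 was the low library, the lowest of the other 5 lying 8.95-fold above it, and the breeds otherwise overlapped. The log2 fold change was −1.04 ± 0.92 (SE, adjusted p = 0.857) and turned to 0.20 without Rongchang 1. Among 5242 genes with a mean of at least 10 FPKM, 5 were more than 8-fold lower in Rongchang 1 than in every other library, and 3 of those were listed at 0 there. CDH2 was the one of the 5 with a symbol, and each other library had 0 to 3 such genes. CDH2 held 25.0% of the summed cadherin FPKM in Rongchang 1, 84.8% in Rongchang 2 and 77.0% in Rongchang 3, against 82.9%, 84.4% and 76.7% in wild boars 1 to 3. The other 16 cadherins summed to 106, 115 and 106 FPKM in Rongchang and 86.3, 102 and 95.9 FPKM in wild boar. For that sum Rongchang 1 was level with Rongchang 3.

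CDH13, the GPI-anchored T-cadherin that also binds adiponectin, stood at 25.6, 34.7 and 28.4 FPKM in Rongchang and 18.8, 26.7 and 20.5 FPKM in wild boar. Its ranges overlapped by a narrow margin, wild boar 2 lying above Rongchang 1 (log2 fold change 0.42 ± 0.19 SE, adjusted p = 0.789). CDH20, a type II cadherin, stood at 9.35, 11.2 and 8.88 FPKM in Rongchang and 8.58, 7.74 and 7.35 FPKM in wild boar. All Rongchang values of CDH20 lay above all wild boar values (0.28 ± 0.15 SE, adjusted p = 0.792). Such separation was seen for 4 of the 39 members tested, all higher in Rongchang, against 11.4% of all genes in that direction and 1.12% in the other. CDH4, or R-cadherin, stood at 3.77, 3.48 and 2.77 FPKM in Rongchang and 2.12, 3.47 and 1.91 FPKM in wild boar (0.33 ± 0.20 SE, adjusted p = 0.811), wild boar 2 lying inside the Rongchang range.

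The type II cadherins CDH18, CDH12, CDH10 and CDH9 follow each other in the RefSeq annotation of assembly Sscrofa11.1 with no protein-coding gene between them. CDH10 was the highest of the 4 in every library, at 10.8 to 13.7 FPKM in Rongchang and 10.05 to 12.9 FPKM in wild boar (log2 fold change 0.13, and −0.035 under median scaling). CDH12 stood at 4.55, 6.53 and 4.98 FPKM in Rongchang against 4.29, 6.77 and 5.77 FPKM in wild boar (log2 fold change −0.05). CDH18 stood at 4.14, 5.49 and 5.30 FPKM in Rongchang and 4.11, 6.25 and 5.12 FPKM in wild boar (−0.04). CDH9, which in mouse takes part in specific hippocampal synapses, had means of 5.77 ± 0.982 FPKM in Rongchang and 5.26 ± 1.53 FPKM in wild boar (0.13, and −0.015 under median scaling). None of these 4 genes separated the breeds. The remaining cadherins tested, CDH7, CDH11, CDH22 and CDH24, had log2 fold changes of 0.12 to 0.18 with adjusted p of 0.865 to 0.933, and CDH11 turned to −0.041 under median scaling.

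CDH1 and CDH3, the E- and P-cadherins best known from epithelia, are also direct neighbours in that annotation. CDH1 stood at 1.16, 0.965 and 0.948 FPKM in Rongchang and 0.817, 0.824 and 0.441 FPKM in wild boar. CDH3 stood at 0.617, 0.376 and 0.315 FPKM in Rongchang and 0.798, 2.06 and 1.05 FPKM in wild boar. The breeds did not overlap for either gene, and they were apart in opposite directions. Both lay under the limit for testing, and the share of genes under that limit without overlap was not counted. Without that limit CDH3 had a log2 fold change of −0.65 (unadjusted p = 0.0150, adjusted p = 0.803) and CDH1 one of 0.26 (unadjusted p = 0.0787, adjusted p = 0.807). CDH15, the M-cadherin of muscle, did not exceed 0.128 FPKM in Rongchang and was listed at 0 in all wild boars. The breeds did not overlap for CDH15 either, at values near the floor. CDH17 stayed at or under 0.064 FPKM in every library. CDH19, a gene of the neural crest and Schwann cell lineage, ranged from 0.402 to 0.811 FPKM in Rongchang and from 0.412 to 1.24 FPKM in wild boar.

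Non-clustered protocadherins, single genes that act in neurite growth and sorting, had a median log2 fold change of 0.26 over the 5 tested of 6, or 0.13 relative to the median gene. PCDH1 was the most abundant, at 26.3, 28.9 and 22.5 FPKM in Rongchang and 17.9, 29.7 and 18.0 FPKM in wild boar. Wild boars 1 and 3 lay below all Rongchang pigs, and wild boar 2 above them (0.27 ± 0.22 SE, adjusted p = 0.857). PCDH7 had the same order, with 10.2, 14.4 and 8.63 FPKM in Rongchang and 6.67, 14.6 and 7.05 FPKM in wild boar (0.26 ± 0.30 SE). PCDH19, a gene of inherited epilepsy in humans, stood at 2.91, 4.09 and 2.01 FPKM in Rongchang and 2.24, 3.001 and 1.66 FPKM in wild boar (0.27 ± 0.23 SE). PCDH8, whose rat form is induced by neuronal activity, stood at 9.02, 8.97 and 10.2 FPKM in Rongchang and 7.30, 11.8 and 7.04 FPKM in wild boar (0.13). The 3 Rongchang values of PCDH8 lay inside the wild boar range. PCDH17 stood at 6.85, 8.25 and 5.72 FPKM in Rongchang and 5.93, 7.30 and 7.09 FPKM in wild boar (0.02). The directions of PCDH8 and PCDH17 flipped under median scaling, to −0.024 and −0.13. PCDH12, a protocadherin of endothelial cells, was under the limit, at 1.18, 0.772 and 0.644 FPKM in Rongchang and 1.02, 0.837 and 0.596 FPKM in wild boar.

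Clustered protocadherins of the alpha and gamma clusters are built from variable first exons joined to exons shared within a cluster. Their reads can therefore be split among members in ways these values do not show. PCDHAC2 was the highest of the 5 clustered protocadherins, at 18.2, 22.0 and 19.5 FPKM in Rongchang and 14.0, 24.6 and 17.3 FPKM in wild boar. PCDHGA4 stood at 2.19, 3.67 and 2.44 FPKM in Rongchang and 2.21, 3.83 and 1.68 FPKM in wild boar. PCDHGB1 stood at 2.95, 1.63 and 2.01 FPKM in Rongchang and 2.12, 2.35 and 1.45 FPKM in wild boar. The breeds overlapped for each, with log2 fold changes of 0.12, 0.10 and 0.10 that flipped to −0.041, −0.019 and −0.016 under median scaling. PCDHA13 stood at 0.254, 0.748 and 0.492 FPKM in Rongchang and 0.515, 0.736 and 0.536 FPKM in wild boar, and PCDHB1 did not exceed 0.113 FPKM in any library.

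Contactins are GPI-anchored molecules of axons and synapses. The log2 fold changes of all 4 contactins matched exceeded that of the median gene, their median being 0.26. CNTN1, which joins CNTNAP1 at the paranodes of myelinated axons, stood at 75.9, 98.8 and 78.4 FPKM in Rongchang and 64.9, 83.5 and 68.3 FPKM in wild boar. Wild boar 2 lay inside the Rongchang range (0.22 ± 0.19 SE, adjusted p = 0.857). CNTN3 stood at 2.66, 3.04 and 2.58 FPKM in Rongchang and 1.39, 2.24 and 1.88 FPKM in wild boar. The lowest Rongchang value lay above the highest wild boar value, with a log2 fold change of 0.41 (95% interval 0.04 to 0.79, unadjusted p = 0.0344, adjusted p = 0.789). The unadjusted p of CNTN3 was 0.0895 under median scaling and 0.0210 with the block. CNTN4, which binds the amyloid precursor protein, stood at 9.93, 16.1 and 13.0 FPKM in Rongchang and 8.60, 13.7 and 9.39 FPKM in wild boar (0.28 ± 0.23 SE). CNTN5 stood at 2.16, 2.82 and 1.89 FPKM in Rongchang and 1.60, 2.23 and 1.55 FPKM in wild boar (0.24 ± 0.17 SE). The breeds overlapped for both. Across the 6 libraries, the genes outside the member list whose log2(FPKM + 1) was most like that of CNTN3 were FAM163B (Pearson r = 0.994), ASB2 (r = 0.993) and FAAH (r = 0.991). These r values are a description over 6 libraries that share the 2 breeds and the library numbers.

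Among the contactin-associated proteins, neurexin-like partners of the contactins, CNTNAP1 was the most abundant. It stood at 45.3, 61.0 and 48.4 FPKM in Rongchang and 30.4, 60.5 and 37.4 FPKM in wild boar, wild boar 2 again lying inside the Rongchang range (0.31 ± 0.26 SE, adjusted p = 0.857). CNTNAP4, a gene of inhibitory interneurons in mouse, stood at 5.82, 9.35 and 7.51 FPKM in Rongchang and 5.23, 10.1 and 6.06 FPKM in wild boar (0.10, and −0.049 under median scaling). CNTNAP5 stood at 2.89, 5.24 and 3.20 FPKM in Rongchang and 2.07, 4.50 and 1.62 FPKM in wild boar (0.40 ± 0.30 SE, adjusted p = 0.848). For CNTNAP4 and CNTNAP5 too, the number 2 library of each breed held the highest value.

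NCAM1, the neural cell adhesion molecule that carries polysialic acid, stood at 98.5, 133 and 89.1 FPKM in Rongchang and 86.1, 134 and 88.5 FPKM in wild boar. The breeds lay together (log2 fold change 0.06, 95% interval −0.49 to 0.62; −0.11 under median scaling). NCAM2, known from olfactory axons in mouse, stood at 20.7, 28.2 and 16.4 FPKM in Rongchang and 14.6, 20.9 and 13.3 FPKM in wild boar (0.39 ± 0.24 SE, adjusted p = 0.811). The ratio of NCAM1 to NCAM2, which does not depend on how a library is scaled, had values of 4.76, 4.71 and 5.44 in Rongchang and 5.89, 6.42 and 6.64 in wild boar, without overlap. It is 1 of 6 ratios between members that were chosen after the values were seen, and it was not tested.

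The CADM genes encode synaptic and axon-glia adhesion molecules. CADM3, of axons and synapses, stood at 92.7, 144 and 137 FPKM in Rongchang and 69.9, 146 and 87.2 FPKM in wild boar (log2 fold change 0.34 ± 0.30 SE, adjusted p = 0.857). CADM4, which binds CADM3 from the side of the myelinating glial cell, was more even, at 106, 95.6 and 105 FPKM in Rongchang and 96.3, 88.7 and 88.8 FPKM in wild boar (0.16 ± 0.16 SE; −0.013 under median scaling). CADM2 stood at 25.4, 43.7 and 18.7 FPKM in Rongchang and 21.4, 32.1 and 18.9 FPKM in wild boar (0.22 ± 0.32 SE). The breeds overlapped for all 3 genes.

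NRXN3, a presynaptic neurexin, stood at 12.5, 21.8 and 11.7 FPKM in Rongchang and 10.5, 18.4 and 10.03 FPKM in wild boar. Its spread within each breed was larger than the difference between them (0.22 ± 0.30 SE, adjusted p = 0.886).

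NLGN1, the neuroligin of excitatory synapses, stood at 8.46, 9.95 and 8.82 FPKM in Rongchang and 7.16, 7.74 and 7.25 FPKM in wild boar. The breeds did not overlap (0.26 ± 0.14 SE, adjusted p = 0.789). NLGN3, found at excitatory and inhibitory synapses, stood at 10.7, 11.3 and 7.99 FPKM in Rongchang and 9.35, 10.7 and 7.52 FPKM in wild boar (0.11, and −0.047 under median scaling).

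LRRTM proteins are leucine-rich postsynaptic ligands of neurexins at excitatory synapses. LRRTM4 stood at 9.10, 11.5 and 10.1 FPKM in Rongchang and 8.60, 9.07 and 6.86 FPKM in wild boar, with no overlap, Rongchang 1 lying just above wild boar 2 (0.30 ± 0.16 SE, adjusted p = 0.794). LRRTM3 stood at 10.4, 15.0 and 12.3 FPKM in Rongchang and 9.41, 11.6 and 9.52 FPKM in wild boar (0.27 ± 0.18 SE, adjusted p = 0.826). LRRTM1 stood at 15.0, 18.7 and 21.3 FPKM in Rongchang and 12.9, 21.5 and 16.4 FPKM in wild boar (0.12, and −0.041 under median scaling). The breeds overlapped for LRRTM1 and LRRTM3.

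**Figure D3:**
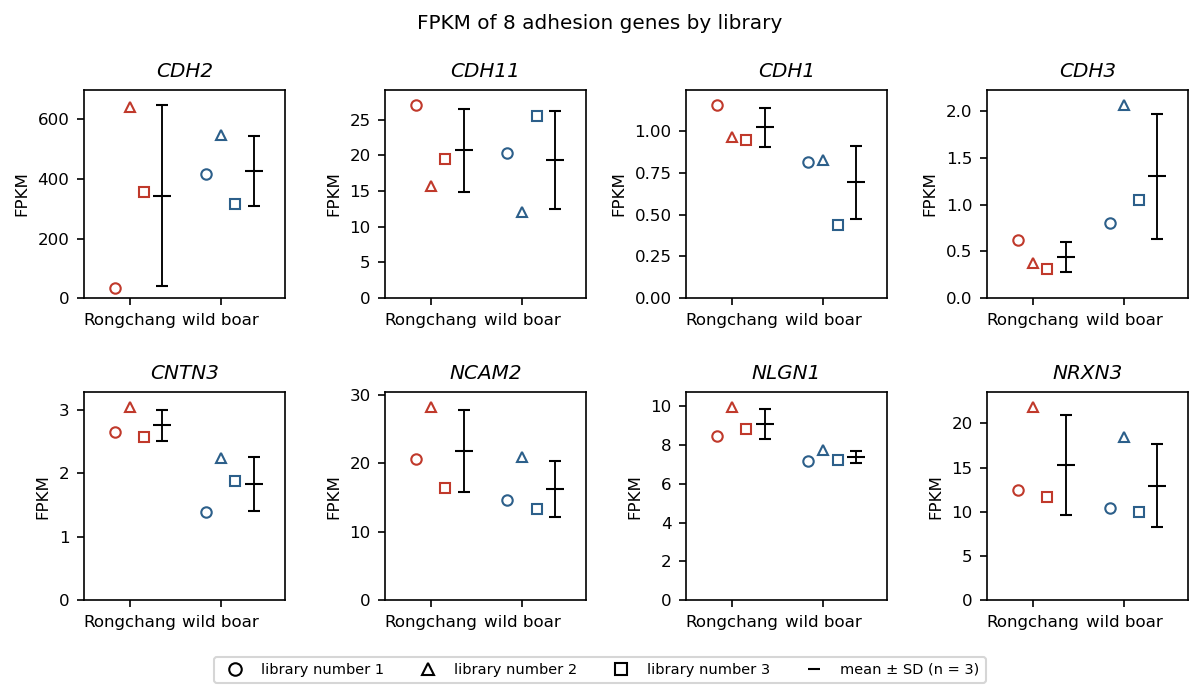
FPKM of 8 members by library, Rongchang left of wild boar, with the library number as the marker shape and mean ± SD (n = 3) beside the points. CDH2 has 1 low library, and CDH11 is lowest in the number 2 libraries. CDH1 and CDH3, both under the limit for testing, are apart in opposite directions. CNTN3 and NLGN1 lie higher in Rongchang without overlap, as 11.4% of all genes tested do.

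For most of these genes the library numbered 2 was the highest of its breed. Rongchang 2 held the highest Rongchang value for 31 of 39 members, and wild boar 2 the highest wild boar value for 36. Both held for 30 of the 39 members (76.9%), against 28.5% of all genes tested. Set against the mean of the other 2 libraries of its breed, the median member was 0.35 log2 units higher in Rongchang 2 and 0.43 higher in wild boar 2, where the median of all genes was 0.02 and 0.09 higher. The median difference of the members between the breeds was 0.18, but this measure is unlike the other. It sets 3 libraries against 3, while the other sets 1 against 2, for a number picked with the values in view.

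Large differences of this kind were seen in several families. CADM2 was 0.97 log2 units higher in Rongchang 2 and 0.65 higher in wild boar 2 than in the rest of its breed. NRXN3 was 0.80 and 0.79 higher on the same measure, and PCDH7 was 0.57 and 0.99 higher. CDH11, a type II cadherin also known from mesenchymal cells, went against this order. It stood at 27.0, 15.6 and 19.5 FPKM in Rongchang and 20.4, 12.02 and 25.6 FPKM in wild boar, and was lowest in the number 2 library of each breed. CADM4, of myelinating glia, was the other member lowest in both, by a smaller margin.

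The order of several marker lists also followed the library number. The 4 oligodendrocyte genes matched summed to 1893, 1595 and 1660 FPKM in Rongchang and 2027, 1230 and 1575 FPKM in wild boar, lowest in number 2 of each breed. The 4 microglia genes summed to 82.3, 48.2 and 84.4 FPKM in Rongchang and 84.2, 37.6 and 67.6 FPKM in wild boar, again lowest in number 2. The summed markers of oligodendrocyte precursors, leptomeningeal fibroblasts and red blood cells were lowest in number 2 of each breed too. Red blood cell markers summed to 138, 67.9 and 190 FPKM in Rongchang and 275, 58.5 and 213 FPKM in wild boar. Single genes of these lists differed. OLIG1, which made up most of the precursor sum, was lowest in number 2 of each breed. PDGFRA, on the precursor and fibroblast lists, stood at 7.74, 9.98 and 5.53 FPKM in Rongchang and 8.93, 5.14 and 5.66 FPKM in wild boar. CSPG4 was also highest in Rongchang 2, while OLIG2 and SLC6A13 were highest in wild boar 2. Of the oligodendrocyte genes, MOG was highest in Rongchang 2. Summed neuron markers were lowest in number 1 of each breed, with 1693, 2252 and 2360 FPKM in Rongchang and 1616, 2225 and 2114 FPKM in wild boar. Their highest library was number 3 in Rongchang and number 2 in wild boar. Single neuron genes differed in this: SNAP25 and STMN2 were highest in number 3 of each breed, and others, GAD1 and GAD2 among them, in number 2. Summed astrocyte markers were highest in number 1 of each breed, with 1216, 1082 and 964 FPKM in Rongchang and 1210, 947 and 1073 FPKM in wild boar. The lowest was number 3 in Rongchang and number 2 in wild boar. Of the forebrain genes, TBR1 was highest in number 2 of each breed, while EMX1 stood at 4.94, 9.13 and 11.5 FPKM in Rongchang and 5.41, 8.90 and 5.05 FPKM in wild boar. The part of cell type or region makeup in the adhesion values was not tested.

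**Figure D4:**
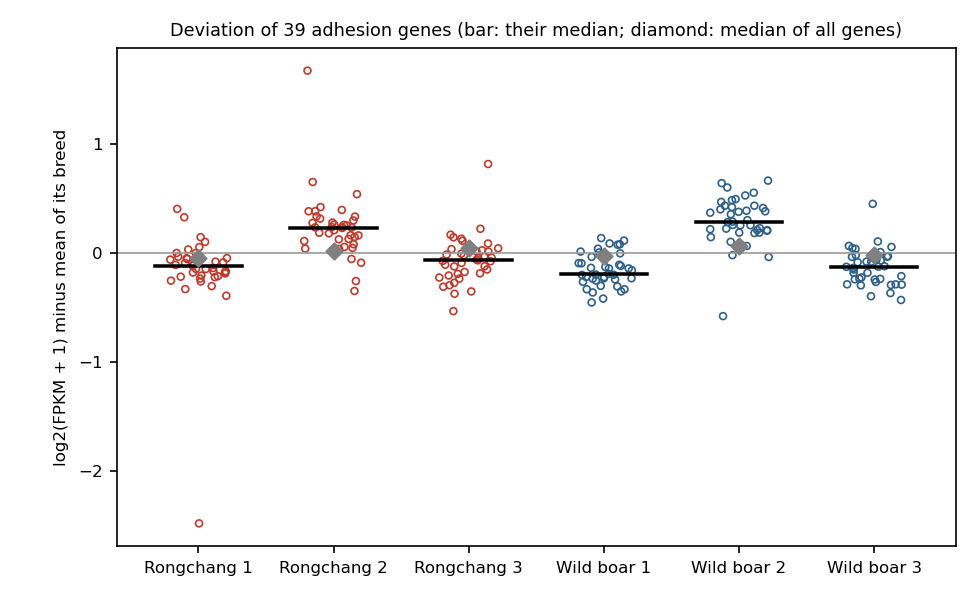
Deviation of each of the 39 members from the mean of its breed, in log2(FPKM + 1), for each library. Black bars are the medians over the members, at 0.23 in Rongchang 2 and 0.28 in wild boar 2 and below 0 in the other 4 libraries, and grey diamonds are the medians over all genes tested.

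Partner genes that the choice by symbol leaves out were read in the same fit. Of 64 listed catenins, receptors, synaptic organisers, scaffolds, modulators, L1-family genes and giant cadherins, 50 matched a symbol and 47 were tested. None passed over all genes in limma. At an unadjusted p under 0.05 there was 1, higher in Rongchang, against 5.42% of all genes in that direction. Of the 47, 38 lay above 0 (80.9%, against 77.9% of all genes), and the median log2 fold change was 0.13, equal to that of all genes to 2 decimals. The order of the libraries was shared with the members: 33 of the 47 partners (70.2%) were highest in number 2 of both breeds, against 76.9% of the members and 28.5% of all genes. They included all 4 L1-family genes and all 5 presynaptic receptors tested, and 2 of the 6 catenins. MDGA1, which binds neuroligins and blocks their contact with neurexins, had the smallest p. It stood at 3.92, 3.53 and 3.52 FPKM in Rongchang and 1.81, 2.76 and 1.71 FPKM in wild boar, without overlap (0.61 ± 0.17 SE, unadjusted p = 0.00725, adjusted p = 0.766). The L1-family gene CHL1 stood at 21.1, 32.4 and 25.0 FPKM in Rongchang and 15.1, 26.3 and 14.5 FPKM in wild boar (0.50 ± 0.26 SE, adjusted p = 0.789). NFASC, the neurofascin of nodes and paranodes, stood at 17.9, 20.03 and 11.6 FPKM in Rongchang and 11.96, 14.4 and 8.79 FPKM in wild boar (0.45 ± 0.24 SE, adjusted p = 0.792). The latrophilin ADGRL2 had a log2 fold change of 0.29 ± 0.19 (SE, adjusted p = 0.824), and the breeds overlapped for CHL1, NFASC and ADGRL2.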

How the data were processed

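The deposited table gives 1 FPKM value per gene and library. Its header names no unit, which was judged from the tools and values. TopHat2 2.0.11, Cufflinks 2.2.1 and Cuffdiff are named in the submitters' processing notes, with no stated role. No source used here gives the genome build, annotation or strand setting. Coordinates are therefore left out, and genes with an antisense partner are uncertain. Library sums ran from 568921 to 687359 FPKM, and 16510 to 17090 genes lay above 0. The deposited values carry no counts, and whole-read steps were looked for below 0.15 FPKM. The most crowded 0.04-wide log2 window of any library pair's ratios held 23.7% of them, so depth stayed unknown and no depth interval is given. That pair was Rongchang 1 with wild boar 1, followed by Rongchang 3 with wild boar 3 at 17.8%. Pairs with a number 2 library held 3.39% to 5.34%, and all other pairs held 6.5% or more. The cause of this difference was not tested.

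The 13152 genes that reached 1 FPKM in 3 or more of the 6 libraries were tested with limma 3.58.1 in R 4.3.3, two-sided, with a mean-variance trend, on log2(FPKM + 1), which understates changes of low genes. P-values were adjusted by Benjamini-Hochberg over all of them, at 0.05. The procedure was checked on simulated data with independent noise for each gene and library. That check does not cover differences that many genes or same-numbered libraries share. Symbols were looked up by Ensembl identifier. Members and lists were chosen with earlier results of these data known. Every member of a family of 6 or fewer was to be named. The values of 1 member and 1 marker are not reported here, though the member is in all counts. In larger families the rule named the most abundant member and the one with the largest change, along with the 6 smallest p in each direction over all members. Partners named are the 4 with the smallest p, and the genes most like CNTN3 are the 3 with the highest Pearson r. Other cadherins, markers and ratios named fall outside the rule and were picked with their values in view.

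Groups follow the titles. Nothing in the labels places the animals in separate herds or litters, and the p-values cover no spread beyond that of these 6 libraries. Same-numbered libraries deviated together from their breed means (correlations of 0.28, 0.59 and 0.37). The other pairs ranged from −0.45 (Rongchang 2 with wild boar 3) to 0.12 (Rongchang 1 with wild boar 3). Deviations from a breed mean sum to 0 for each gene, so these correlations depend on each other. The pairing by number rests on these values, since the labels do not say what a number marks. Alternatives were another pseudocount, 2 other filters, median scaling, quantile normalization, the block with and without median scaling, library weights and libraries left out.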

Additional observations from a re-analysis of the deposited data

How the results depend on the processing

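No member passed the adjusted threshold in any of the 15 alternatives. The number among all genes was 1, and it was 3 with a pseudocount of 0.1, 0 with a mean of at least 5 FPKM, 3 without both libraries numbered 2, and 1 to 4 with 1 library left out. Members with an unadjusted p under 0.05 in limma numbered 1 (6.0% of all genes did so), against 2 with no filter (6.1%). There were 0 with a mean of at least 5 FPKM (5.01%), median scaling (3.76%) or quantile normalization (3.76%). Library weights gave 5 (11.5%), and leaving out both libraries numbered 2 gave 7 (8.94%). With the replicate block there were 9 (17.4%), and 2 with the block and median scaling (10.5%). The number ranged from 0 to 9 with 1 library left out. It was 0 without Rongchang 1 (5.41% of all genes), wild boar 1 (5.06%) or wild boar 3 (3.59%). It was 9 without wild boar 2 (10.1%). Members above 0 numbered 35 (77.9% of all genes lay there). They numbered 22 under median scaling with or without the block (46.4%) and 23 under quantile normalization (48.3%).

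Of 488 recomputed log2 fold changes of 33 members, 52 had the opposite sign. Under median scaling, with or without the block, these were PCDHAC2 −0.041, NCAM1 −0.11, NLGN3 −0.047, LRRTM1 −0.041, PCDH8 −0.024, PCDH17 −0.13, PCDHGA4 −0.019, PCDHGB1 −0.016, CNTNAP4 −0.049 and CADM4 −0.013. Under quantile normalization they were PCDHAC2 −0.022, NCAM1 −0.078, NLGN3 −0.045, LRRTM1 −0.026, PCDH8 −0.026, PCDH17 −0.12, PCDHGA4 −0.024, PCDHGB1 −0.030 and CNTNAP4 −0.046. Without both libraries numbered 2, CDH18 was 0.025 and PCDH17 −0.043. With 1 library left out, the values that crossed 0 ranged from −1.88 to 0.20 for CDH2, −0.054 to 0.33 for PCDHAC2, −0.10 to 0.27 for NCAM1, −0.047 to 0.48 for NRXN3, −0.013 to 0.25 for NLGN3, −0.045 to 0.30 for LRRTM1, −0.20 to 0.074 for CDH12 and −0.16 to 0.088 for CDH18. They ranged from −0.093 to 0.14 for PCDH17, −0.083 to 0.34 for PCDHGA4, −0.065 to 0.23 for PCDHGB1, −0.066 to 0.35 for CNTNAP4 and −0.11 to 0.48 for CADM2. The cause was not tested. Depth is unknown, and 3 against 3 libraries allow an exact permutation p of no less than 0.1.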
